A study of Sus scrofa domesticus with 6 samples.

Results

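The genes described here are nuclear-encoded genes of oxidative phosphorylation, chosen by name: 49 symbols of subunits of the 5 complexes, taken wherever a feature of the deposited matrices carried exactly that symbol. All 6 libraries listed 42 of them, and no library listed the other 7 (NDUFB3, NDUFS7, UQCRH, COX6B1, ATP5F1B, ATP5F1E and ATP5PD). The 42 comprised 15 of 17 named subunits of complex I, 4 of 4 of complex II, 6 of 7 of complex III, 8 of 9 of complex IV and 9 of 12 of complex V. NDUFA4, counted with complex I by its name, is now assigned to complex IV. All 42 passed the filter on low counts in the tests described, except in mast/basophil-like cells of control against IRI and under some alternative settings, such as thinned sums. They stand beside 33025 genes listed in at least 1 library and 23556 listed in all 6.

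Oxidative phosphorylation makes ATP in the inner mitochondrial membrane. Complex I (NADH dehydrogenase, NDUF genes) and complex II (succinate dehydrogenase, SDH genes, also an enzyme of the TCA cycle) pass electrons through complex III (the cytochrome bc1 complex, UQCR genes and CYC1) to complex IV (cytochrome c oxidase, COX genes), and the ATP synthase, complex V (ATP5 genes), uses the resulting proton gradient. Complexes I, III, IV and V combine nuclear-encoded subunits with subunits encoded in mitochondrial DNA, whereas complex II is wholly nuclear-encoded. During ischemia the chain lacks oxygen as its final electron acceptor, and succinate that accumulates is oxidised by complex II on reperfusion.

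The libraries are droplet single-cell RNA libraries of domestic pig lung (Sus scrofa domesticus) from a model of single-lung transplantation with ischemia-reperfusion injury (IRI). The 3 control libraries hold the whole, unsorted cell suspension of the right lungs of donors. The IRI libraries come from allografts taken after 24 h of cold ischemia and 8 h of reperfusion, whose cells were stained with an antibody to CD45, a surface protein of leukocytes, and a viability dye, and sorted: 2 libraries hold CD45-positive cells (IRI CD45+) and 1 holds CD45-negative cells (IRI CD45-). All lungs were perfused, dissociated enzymatically and cleared of red cells by lysis, and the labels give no breed, age or sex. Since the controls went unsorted, effects of the sort and of the injury cannot be told apart where control is compared with IRI. Whether cells of the allografts came from the donor or the recipient was not tested, so a difference in origin cannot be told apart from these either. The labels call the specimens paired but do not say which libraries come from the same animals, so p-values measure the spread between these libraries.

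The libraries held 19098567 to 40647380 UMIs (unique molecular identifiers, each standing for 1 captured transcript) in 4705 to 15817 deposited cells. Deposited cells had at least 1001 UMIs in the controls and at least 74 to 117 in the IRI libraries. The 42 genes took 0.878%, 0.864% and 0.809% of the UMIs in control 1, 2 and 3, 0.746% and 0.748% in IRI CD45+ 1 and 2, and 0.641% in the IRI CD45- library. The 13 mitochondrially encoded subunits were listed in the controls only, where they took 5.58% to 6.95% of UMIs, so they have no value in the IRI libraries. Cells fell into clusters that were named "-like" from marker genes. The 42 genes and other respiratory chain genes took no part in the clustering. A level is given in CPM, the UMI counts-per-million of the class in that library, taken over the genes listed in all 6 libraries. It is a share of the RNA captured, so a lower level does not say that a cell held fewer molecules.

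Control classes were ordered if they were named and had at least 20 cells in every control library, which AT2- and ciliated-like cells did not. Among them the summed level of the 42 genes ranged from 12122 ± 154 CPM (SD, n = 3) in NK-like cells to 4914 ± 780 in mast/basophil-like cells. NK-like cells stood at 12158, 12256 and 11953 CPM in control 1, 2 and 3, plasma-like cells at 11516, 12121 and 11947, and macrophage-like cells at 12366, 11900 and 10391. These 3 classes overlapped in range, and each library of each of them lay above every library of the other classes in this order. With a denominator of all genes listed in the library, the plasma-like mean was below the NK- and macrophage-like means (values given near the end). T-like cells followed at 9695 ± 369, B-like cells at 9237 ± 977, smooth muscle/pericyte-like cells at 7903 ± 822 and dendritic-like cells at 7703 ± 218. Lymphatic endothelial-like cells (6531 ± 335), endothelial-like cells (5973 ± 487), fibroblast-like cells (5944 ± 369) and mast/basophil-like cells (30 to 57 cells per library) stood lowest. Between neighbours in this order, the ranges were separate only between macrophage- and T-like cells and between dendritic- and lymphatic endothelial-like cells. The order did not follow depth: the median UMIs per cell were 2479 to 2727 in NK-like, 5211 to 6800.5 in macrophage-like, 7191.5 to 7860 in plasma-like, 1973 to 2515 in endothelial-like and 1593 to 2036.5 in mast/basophil-like cells.

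The complexes did not share 1 order. Complex II stood highest in macrophage-like cells (563 ± 36.6 CPM, n = 3) and next in smooth muscle/pericyte-like cells (448 ± 82.9), whose ranges overlapped, while NK- and plasma-like cells had 374 ± 29.9 and 373 ± 22.7. Complex V stood highest in plasma-like cells (4028 ± 207), then NK-like cells (3686 ± 38.9) and macrophage-like cells (3338 ± 331). The plasma-like range lay above the NK-like range, and the NK-like range above the macrophage-like range. Among the classes ordered, 13 of the 42 genes had their highest mean level in NK-like cells, 13 in macrophage-like, 11 in plasma-like and 5 in smooth muscle/pericyte-like cells. The lowest mean was in mast/basophil-like cells for 27 genes.

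Each class was tested against the mean of the other classes with library as a term (edgeR's quasi-likelihood test, Benjamini-Hochberg adjustment over all genes, called at 0.05). In macrophage-like cells 42 of 42 genes were higher and 0 lower, against 28.5% and 16.2% of all genes tested, with a median difference of 0.78 on the log2 scale. NK-like cells had 40 higher and 0 lower (28.4% and 17.4% of all genes; median 0.76), NDUFB9 and SDHC not passing the test. Plasma-like cells had 40 higher and 0 lower (29.9% and 18.3%; median 0.96), NDUFB10 and COX7C not passing. T-like cells had 21 higher and 0 lower (23.5% and 14.4%), and B-like cells 20 higher and 2 lower (23.2% and 14.6%), the B-like count of higher genes falling to 10 without control 3. With all sums thinned to the smallest, a setting that tests fewer genes, the counts of higher genes were 17 of 32 in macrophage-like, 13 in NK-like, 19 in plasma-like and 4 in T-like cells.

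Complex I genes differed in the class where they were highest. NDUFC2, an accessory subunit of its membrane arm, stood at 239, 179 and 162 CPM in macrophage-like cells of control 1, 2 and 3, against 108, 118 and 111 in NK-like cells and 16.4, 14.7 and 34.4 in mast/basophil-like cells. The mast/basophil-like values rest on few UMIs, from 30 to 57 cells per library. The 3 classes did not overlap, and the edgeR difference of macrophage-like cells from the mean of the other classes was 1.56 ± 0.11 (SE) on the log2 scale (adjusted p = 5.05e-18). NDUFS3, a core subunit of the peripheral arm, was also higher in macrophage-like cells, by 1.44 ± 0.11 (edgeR adjusted p = 2.70e-16). NDUFB7 stood at 219, 213 and 205 in NK-like cells, above 188, 183 and 174 in plasma-like and 132, 139 and 120 in T-like cells. Its NK-like difference was 1.05 ± 0.10 (edgeR adjusted p = 6.09e-13). NDUFB9 was highest in plasma-like cells, at 440, 412 and 392 CPM (1.16 ± 0.08, edgeR adjusted p = 8.89e-17).

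Complex II had its largest difference in macrophage-like cells. SDHB, the iron-sulfur subunit that hands electrons on from the flavoprotein SDHA, stood at 281, 279 and 248 CPM there. Plasma-like cells had 129, 147 and 142, NK-like cells 114, 135 and 135 and T-like cells 98.9, 110 and 108. Every macrophage-like value was above every value of these 3 classes, and the difference from the other classes was 1.57 ± 0.10 (edgeR adjusted p = 6.27e-19). The membrane anchors SDHC and SDHD differed less. SDHC stood at 102, 161 and 132 in smooth muscle/pericyte-like cells, overlapping the 116, 114 and 112 of macrophage-like cells, and at 66.9 to 72.3 in fibroblast-like cells. SDHC and SDHD passed the test as higher in smooth muscle/pericyte-like cells (0.60 ± 0.16 and 0.43 ± 0.17, edgeR adjusted p = 0.00292 and 0.0493). In NK-like cells SDHD was higher by 0.44 ± 0.11, a call lost without control 3 (0.34).

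Complex III followed the same 3 classes. UQCRC1, a core protein of complex III, stood at 164, 181 and 181 CPM in macrophage-like cells, above 130, 135 and 152 in NK-like, 106, 134 and 134 in plasma-like and 48.5, 48.8 and 33.0 in endothelial-like cells. The differences from the mean of the other classes were 1.48 ± 0.10 in macrophage-like and -1.31 ± 0.22 in endothelial-like cells (edgeR adjusted p = 1.32e-17 and 2.84e-06). CYC1, cytochrome c1, was highest in plasma-like cells at 146, 183 and 193, which overlapped 180, 183 and 140 in macrophage-like cells. Dendritic-like cells had low UQCR10, a small subunit of the complex, at 28.4, 34.2 and 28.0 against 107, 105 and 95.6 in macrophage-like cells.

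Complex IV gave NK-like cells their largest differences. COX8A, a small membrane subunit, stood at 538, 523 and 471 CPM in NK-like cells, 404, 410 and 377 in plasma-like, 384, 422 and 382 in T-like and 128, 118 and 97.3 in fibroblast-like cells. NK-like cells lay above the other 3, by 1.24 ± 0.09 against the mean of all other classes (edgeR adjusted p = 5.45e-17). COX5B, a subunit exposed to the matrix, stood at 604, 590 and 533 there against 154, 313 and 169 in endothelial-like cells, without overlap. COX5A stood at 91.0, 59.7 and 69.3 in smooth muscle/pericyte-like cells against 337, 378 and 373 in NK-like cells, and was lower in the former by 1.73 ± 0.19 on the log2 scale (edgeR adjusted p = 1.31e-10). COX7A2, the widely expressed isoform of subunit 7A, stood at 444, 491 and 444 in plasma-like and at 32.9, 118 and 34.4 in mast/basophil-like cells, the latter from few UMIs.

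Complex V separated plasma-like cells. ATP5MC1, 1 of the genes that encode the rotating c-ring of the ATP synthase, stood at 456, 478 and 458 CPM in plasma-like cells. NK-like cells had 249, 253 and 227, macrophage-like cells 289, 309 and 184 and mast/basophil-like cells 16.4, 58.8 and 75.7, the last class from few UMIs. Plasma-like cells lay above all of these, with a difference of 1.99 ± 0.10 from the mean of the other classes (edgeR adjusted p = 4.89e-22). ATP5MC3, another c-ring gene, was at 766, 772 and 778 in NK-like and 742, 752 and 602 in macrophage-like cells, against 141, 199 and 155 in endothelial-like cells. Its endothelial-like difference was -1.64 ± 0.16 (edgeR adjusted p = 1.13e-12).

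Among the classes tested, more genes were lower than higher in endothelial-, lymphatic endothelial-, fibroblast-, smooth muscle/pericyte- and mast/basophil-like cells. Epithelial classes had too few control cells to enter the test. In endothelial-like cells 35 of 42 genes were lower and 0 higher, against 12.6% and 16.9% of all genes, with a median of -0.75. Mast/basophil-like cells had 35 lower and 0 higher (8.19% and 8.07% of all genes), with a median of -1.05 where the median of all genes tested was -0.37. Lymphatic endothelial-like cells had 28 lower and 0 higher (12.7% and 17.7%), fibroblast-like cells 22 lower and 2 higher (20.8% and 33.2%) and smooth muscle/pericyte-like cells 18 lower and 4 higher (13.7% and 16.6%). The 4 genes higher in smooth muscle/pericyte-like cells were NDUFB1, NDUFB9, SDHC and SDHD. The 2 higher in fibroblast-like cells were SDHD and UQCR10. Dendritic-like cells had 6 lower and 6 higher (12.3% and 25.3%). The smooth muscle/pericyte-like count of lower genes was 7 without control 2 and 8 without control 3, and after thinning the endothelial- and mast/basophil-like counts of lower genes were 4 and 16 of 32.

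**Figure D1:**
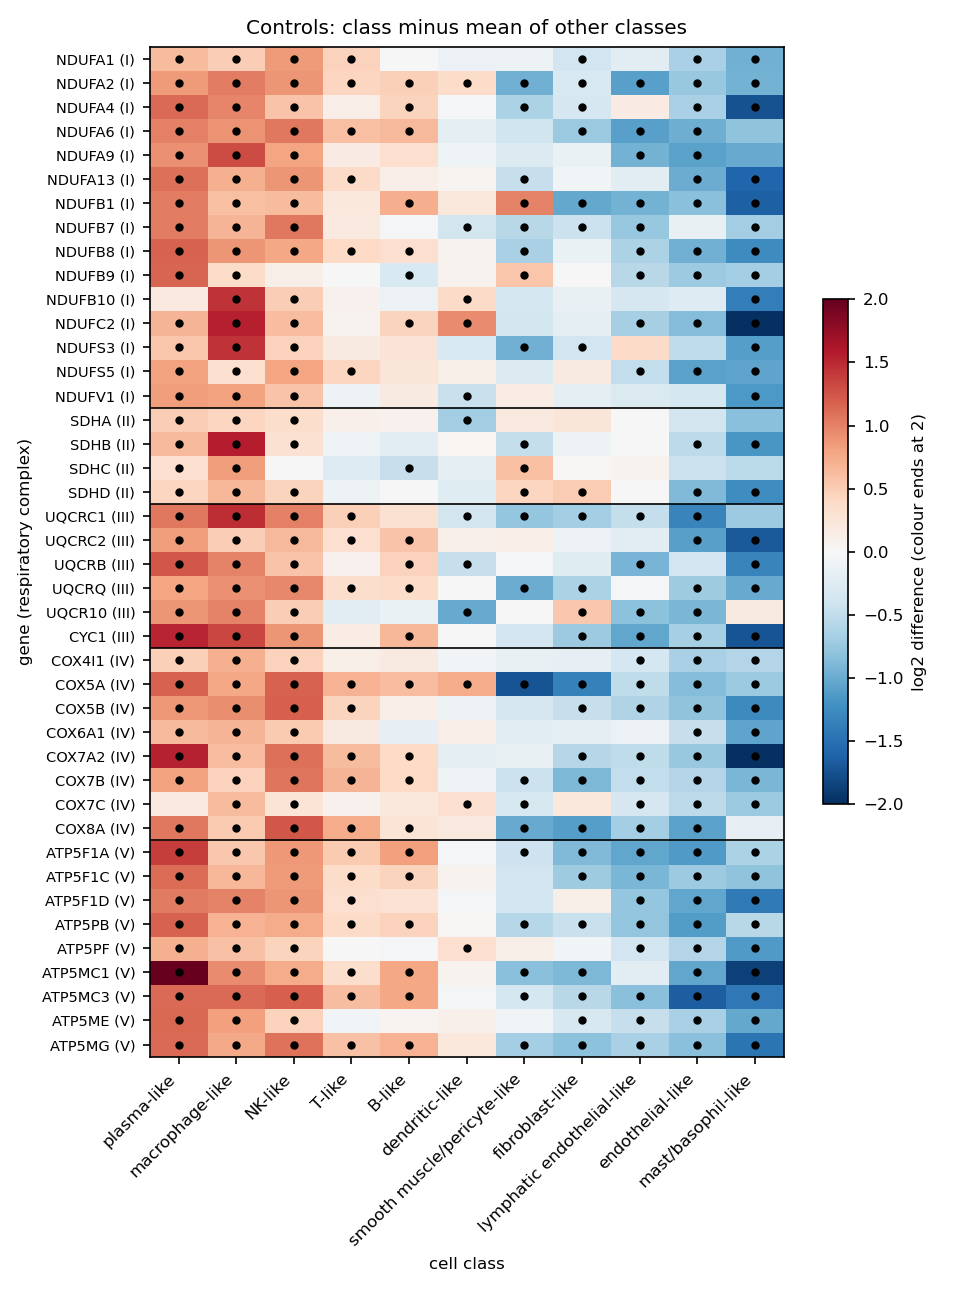
Log2 difference of each class from the mean of the other classes in the 3 control libraries (colour scale), with the 42 genes by complex in rows and 11 cell classes in columns. The columns of plasma-, macrophage- and NK-like cells are nearly all above 0 and those of endothelial- and mast/basophil-like cells nearly all below it, with SDHB standing out in macrophage-like and ATP5MC1 in plasma-like cells.

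Other mitochondrial and translation genes were called in the same tests. The shares of all genes were 28.5% higher and 16.2% lower in macrophage-like, 28.4% and 17.4% in NK-like and 29.9% and 18.3% in plasma-like cells. They were 12.6% lower and 16.9% higher in endothelial-like, 8.19% and 8.07% in mast/basophil-like and 20.8% and 33.2% in fibroblast-like cells. Further subunits of the same complexes were higher in macrophage-like cells for 23 of 32 genes tested and lower for 1, in NK-like cells for 25 and 1, and in plasma-like cells for 29 and 0. In endothelial-like cells 17 were lower and 3 higher, and in mast/basophil-like cells 24 lower and 0 higher. Mitochondrial ribosome genes were higher in 41, 50 and 53 of 68 in macrophage-, NK- and plasma-like cells. The mitochondrially encoded subunits were called higher in 11 of 13 in macrophage-like and in 13 of 13 in NK- and plasma-like cells, and lower in 13 of 13 in fibroblast-like cells. These calls rest on differences scaled by TMM, the scaling edgeR applies between sums. Their counts do not rank the classes by the level of these subunits, which is not given here by class. Cytosolic ribosome genes, by contrast, were lower in 58 of 70 in macrophage-like cells and higher in 58 in NK-like and 68 in plasma-like cells. In smooth muscle/pericyte-like cells 3 subunit isoforms with known tissue-restricted expression were higher: COX4I2 by 8.10 ± 0.27 (edgeR adjusted p = 2.06e-29), NDUFA4L2 by 5.03 ± 0.58 and COX7A1 by 1.97 ± 0.26.

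Among the sorted leukocytes of the grafts, plasma-like cells stood highest, at 12111 and 12224 CPM in IRI CD45+ 1 and 2. NK-like cells had 9100 and 8926, B-like cells 8697 and 8045, macrophage-like cells 7916 and 8386, dendritic-like cells 7527 and 7785, T-like cells 6471 and 7458, monocyte-like cells 6593 and 7152 and mast/basophil-like cells 5184 and 4977. Neutrophil-like cells stood lowest, at 3540 and 3794. Plasma-like cells lay above and neutrophil-like cells below every other class in both libraries. Neutrophil-like cells also had the shallowest cells, with median totals of 1019 and 898.5 UMIs, against 2310 to 11058 in the other named classes.

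Against the mean of the other classes of the same 2 libraries, plasma-like cells had 33 of 42 genes higher and 0 lower, against 19.8% and 18.8% of all genes (edgeR). ATP5MC1 was again the plasma-like gene with a large difference, at 498 and 532 CPM (1.73 ± 0.19, edgeR adjusted p = 4.68e-08), and CYC1 in complex III was higher by 1.12 ± 0.19 (edgeR adjusted p = 2.72e-05). The NK-like count was 5 higher and 0 lower (15% and 11.6% of all genes), the macrophage-like count 10 and 0 (16.6% and 10.1%) and the monocyte-like count 8 and 0 (23.5% and 11.0%). The NK- and monocyte-like shares of higher genes were below those of all genes. Mast/basophil-like cells had 29 lower and 0 higher (11.5% and 13.4%). B-like cells had 2 lower and 4 higher (13.7% and 18.5%), dendritic-like cells 1 and 2 (6.92% and 13.7%) and T-like cells 1 and 1 (14% and 19.3%), all shares below those of all genes.

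Neutrophil-like cells had 23 of 42 genes lower and 2 higher, against 8.46% and 25.0% of all genes, with a median of -0.63 against 0.13 for all genes tested. UQCR10 stood at 4.81 and 11.6 CPM against 38.4 and 40.2 in monocyte-like cells (-1.71 ± 0.36 against the mean of the other classes, edgeR adjusted p = 0.000353). Its neutrophil-like levels rest on few UMIs, in sums of 1246311 and 944651 UMIs. ATP5MC3 stood at 114 and 164 against 347 and 490 in monocyte-like and 616 and 601 in NK-like cells (-0.97 ± 0.18, edgeR adjusted p = 8.64e-05). Both libraries of neutrophil-like cells were below both of the other classes named. COX4I1, the common isoform of cytochrome c oxidase subunit 4, went the other way. It stood at 1044 and 792 CPM in neutrophil-like cells, 788 and 738 in monocyte-like and 491 and 487 in NK-like cells, and passed as higher by 1.91 ± 0.12 (edgeR adjusted p = 4.09e-13). The log2 differences in this paragraph are scaled by TMM, the scaling edgeR applies between sums, and the CPM are not. The 2 measures therefore differ in size, with the log2 differences shifted upward. The neutrophil-like range lay above the other 2, narrowly so for the monocyte-like range.

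By complex, the genes lower in neutrophil-like cells included 8 of 9 of complex V and 0 of 4 of complex II. Beside the 8.46% lower and 25.0% higher of all genes, 7 of 16 TCA cycle genes were lower and 0 higher. Of 20 glycolysis genes 3 were lower and 8 higher, among them HK3, a hexokinase of leukocytes (5.44), PFKFB3, which makes an activator of phosphofructokinase (2.31), and LDHA (1.48). The count of lower genes moved with the cells kept and with the scaling: it was 4 with cells of at least 1000 UMIs, 9 of 37 after thinning, 10 at a finer clustering and 39 without TMM scaling. Under the first and the third of these settings the calls of UQCR10 and ATP5MC3 were lost.

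The lone IRI CD45- library has no replicate, so its values carry 95% exact Poisson intervals, which cover counting error only, and no test. The summed level was 10532 (10352 to 10714) in basal-like cells, 9180 (8988 to 9374) in NK-like cells, 8689 in ciliated-like cells, 5820 in AT2-like cells, 5013 (4878 to 5150) in endothelial-like cells and 4225 in AT1-like cells. AT2- and AT1-like cells are named from markers of type 2 and type 1 alveolar epithelial cells, and there were 8282 and 277 of them. AT2 markers were also counted in other classes of this library. Their sum reached 23508 CPM in its NK-like cells and 45512 in its endothelial-like cells, against 37 to 62 in endothelial-like cells of the controls, and its part in these levels was not tested.

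NK-like cells of the grafts had lower levels of most of these genes than NK-like cells of control lungs. Of 42 genes 31 were lower and 2 higher in IRI CD45+, 73.8% lower against 31.4% of all genes and 4.76% higher against 27.1% (edgeR). The median log2 change was -0.41, against -0.05 for all genes tested. For 34 genes all IRI libraries were below all controls and for 2 above them, where 34.6% and 38.5% of all genes with a mean of at least 10 CPM were so placed. The lower genes were 13 of 15 of complex I, 1 of 4 of complex II, 4 of 6 of complex III, 6 of 8 of complex IV and 7 of 9 of complex V. Summed over complex I, the level was 2737, 2805 and 2663 CPM in control 1, 2 and 3 and 1819 and 1758 in IRI CD45+ 1 and 2. Summed over complex II it was 339, 390 and 391 against 405 and 404. Complex I was thus lower and complex II slightly above the controls in both IRI libraries.

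NDUFB7, an accessory subunit of complex I on the side of the intermembrane space, had the smallest p in NK-like cells. It stood at 219, 213 and 205 CPM in the controls and at 69.7 and 70.7 in IRI CD45+, a log2 change of -1.55 ± 0.11 (edgeR adjusted p = 3.02e-08). NDUFC2 fell from 108, 118 and 111 to 38.2 and 43.8 (-1.41 ± 0.13, edgeR adjusted p = 4.15e-07). The groups were far apart for both genes. COX7B, a small subunit of complex IV, stood at 773, 696 and 685 in the controls and at 333 and 356 in IRI CD45+ (-1.01 ± 0.10, edgeR adjusted p = 9.41e-07). ATP5PF, a coupling factor of the ATP synthase stalk, stood at 384, 374 and 403 against 215 and 190 (-0.89 ± 0.09, edgeR adjusted p = 2.64e-06). Both were below every control in both IRI libraries. UQCRB, which binds ubiquinone in complex III, stood at 209, 243 and 253 against 158 and 126 (-0.67 ± 0.11, edgeR adjusted p = 0.000189).

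SDHC and SDHD, the membrane anchors of complex II, were the 2 genes higher in NK-like cells of the grafts. SDHC stood at 70.0, 69.5 and 77.7 CPM in the controls and 115 and 105 in IRI CD45+ (0.66 ± 0.11, edgeR adjusted p = 0.00017). SDHD was higher by 0.38. Without control 1 or without IRI CD45+ 1 the test called 1 gene higher, not 2. The complex II gene SDHA, the flavoprotein, was lower by 0.38 on the log2 scale, and SDHB did not pass the test.

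The other called changes in NK-like cells were smaller than those of NDUFB7, NDUFC2, COX7B and ATP5PF. NDUFV1, the subunit that takes electrons from NADH, fell by 0.83 on the log2 scale, NDUFB10 by 0.70 and NDUFA1 by 0.61. In complex III UQCR10 fell by 0.65 and CYC1 by 0.44, and in complex IV COX7C by 0.45, COX4I1 by 0.44 and COX8A, the gene with a large NK-like difference in control lungs, by 0.35. In complex V ATP5F1D, a subunit of the central stalk, fell by 0.61 and ATP5ME by 0.52, whereas the c-ring genes ATP5MC1 and ATP5MC3 fell by 0.36 and 0.29. NDUFB9, NDUFS3, SDHB, UQCRC1, UQCRC2, COX5A, COX6A1, ATP5F1A and ATP5PB did not pass the test. The core proteins of complex III, UQCRC1 and UQCRC2, were thus not called, where CYC1 and the small subunits UQCRB, UQCRQ and UQCR10 were.

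The NK-like cells of the 2 groups came from different clusters. Of the control cells 57.5% lay in cluster 1 and 40.1% in cluster 3, and of the IRI CD45+ cells 96.2% lay in cluster 13. The top genes of cluster 1 included GNLY, GZMB, GZMA and CD8A, and those of cluster 3 KLRB1, KLRK1 and NCR1. The log2 score of T cell markers was 0.88 in cluster 1, 0.11 in cluster 3 and 0.52 in cluster 13. The NK-like class may thus hold cytotoxic T cells in unlike shares, and their part in the result was not tested. Summed markers of cycling cells (7 of 8 listed, none at 0) stood at 964 to 1116 CPM in NK-like cells of the controls and 422 to 450 in IRI CD45+. NK markers stood at 11312 to 13482 and 15372 to 15490, and T cell markers at 1672 to 1914 and 1925 to 2093. Median totals were 2479 to 2727 UMIs per NK-like cell in the controls and 2910 to 3059 in IRI CD45+. The part of the cycling markers and of depth in the result was not tested. In the lone IRI CD45- library NK-like cells had 56.7 CPM of NDUFB7, 33.6 of NDUFC2, 271 of COX7B and 94.6 of SDHC, each on the IRI CD45+ side of the controls.

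T-like cells of the grafts also had lower levels of several of these genes. Of 42 genes 19 were lower and 2 higher in IRI CD45+, 45.2% lower against 32.2% of all genes and 4.76% higher against 27.6% (edgeR), with a median of -0.27 against -0.06 for all genes tested. For 33 genes the IRI libraries lay below all controls and for 2 above, against 40.6% and 32.5% of all genes. The lower genes were 8 of complex I, 0 of complex II, 2 of complex III, 4 of complex IV and 5 of complex V. NDUFB7 stood at 132, 139 and 120 CPM in the controls and 42.5 and 53.2 in IRI CD45+ (-1.26 ± 0.14), and NDUFC2 at 89.6, 84.1 and 80.5 against 33.8 and 32.4 (-1.16 ± 0.15). COX7B stood at 582, 580 and 608 against 246 and 289 (-0.95 ± 0.12), and ATP5PF at 302, 316 and 298 against 149 and 166 (-0.76 ± 0.12). All 4 were below every control in both IRI libraries and passed the test. Among the other called genes NDUFV1 fell by 0.78, NDUFB10 by 0.72, ATP5F1D by 0.64 and ATP5MC1 by 0.49, and SDHA, SDHB, UQCRC1, UQCRC2, COX8A and ATP5F1A were among the 21 that did not pass.

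CYC1 and SDHC in T-like cells rested on fewer settings. CYC1 stood at 90.9, 90.2 and 83.2 CPM in the controls and 59.3 and 51.8 in IRI CD45+ (-0.47 ± 0.14, edgeR adjusted p = 0.00765), a call lost without IRI CD45+ 2 (-0.32). SDHC stood at 62.7, 61.3 and 69.6 against 80.1 and 94.8 (0.63 ± 0.14, edgeR adjusted p = 0.000678). Its call was lost with the stricter cell filter on UMIs, genes and mitochondrial UMIs (0.21) and without the top doublet scores (0.37). The count of lower genes was 11 without IRI CD45+ 1, 34 with the stricter cell filter, and 29 without TMM or at a finer clustering. In the controls 97.3% of T-like cells lay in cluster 0, and in IRI CD45+ 97.6% in cluster 7. Cluster 0 was led by ICOS, CTLA4, CD40LG and LAG3, and cluster 7 by LEF1, CD28, S1PR1 and IL7R. The part of this difference between T-like clusters in the result was not tested. NK markers in T-like cells stood at 1429 to 1556 and 554 to 580 CPM, and cycling markers at 651 to 679 and 149 to 213, while the median totals per cell were 2105.5 to 2369 and 3609.5 to 3722.5 UMIs. Their part in the result was not tested.

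B-like cells came from 1 cluster in all groups and numbered 254, 408 and 239 in the controls and 407 and 414 in IRI CD45+. Their cycling markers stood at 555 to 608 CPM in the controls and 223 to 278 in IRI CD45+, and the part of these in the result was not tested. Of 42 genes 7 were lower and 3 higher in IRI CD45+, 16.7% and 7.14% against 23.4% and 20.2% of all genes, both shares below the background. NDUFC2 stood at 93.4, 95.2 and 118 CPM in the controls and 54.8 and 58.1 in IRI CD45+ (-0.82 ± 0.18). NDUFB7 stood at 111, 84.1 and 128 against 62.9 and 57.0 (-0.80 ± 0.19), and COX7B at 489, 445 and 481 against 284 and 298. The groups did not overlap for any of these 3. SDHC stood at 57.7, 46.3 and 58.1 against 105 and 77.9 (0.79 ± 0.20), a call lost without IRI CD45+ 1 (0.61). ATP5PB, a subunit of the peripheral stalk of the ATP synthase, stood at 336, 302 and 323 against 405 and 424 (edgeR adjusted p = 0.0269), a call lost without any 1 of 4 of the 5 libraries. Without control 1 the count of lower genes was 4.

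**Figure D2:**
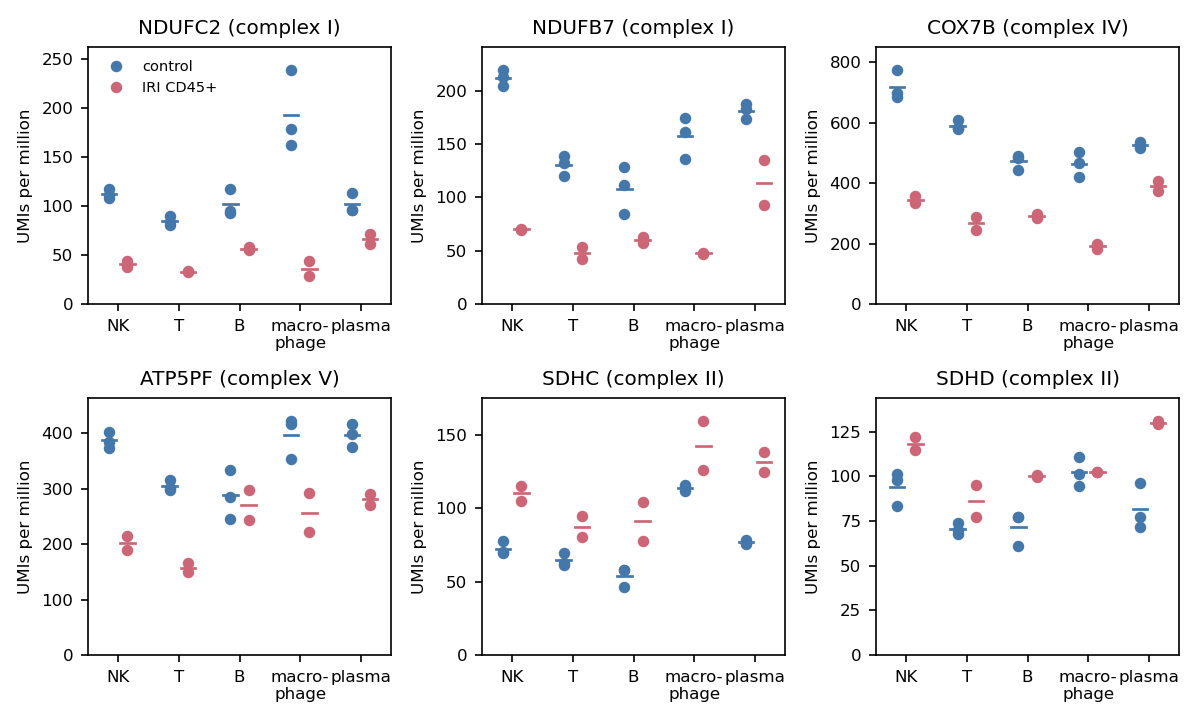
Levels of single genes (y axes, CPM, starting at 0) in NK-, T-, B-, macrophage- and plasma-like cells (x axes), with 1 point per control library and 1 per IRI CD45+ library. NDUFB7 in NK-like cells sits at 205 to 219 in the controls and at 69.7 and 70.7 in IRI CD45+, while SDHC sits at 69.5 to 77.7 and at 115 and 105.

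In macrophage-like cells the count of genes that passed the test was near the background. Of 42 genes 10 were lower and 0 higher in IRI CD45+, 23.8% lower against 18.0% of all genes and 0 higher against 12.9% (edgeR), with a median of -0.44 against -0.23 for all genes. For 29 genes the IRI libraries lay below all controls and for 1 above, against 37.9% and 23.5% of all genes. The lower genes were 6 of complex I, 1 of complex II, 1 of complex III, 2 of complex IV and 0 of complex V. IRI CD45+ 1 and 2 held 37 and 55 macrophage-like cells, and the controls 299, 442 and 434.

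The largest change was that of NDUFC2, from 239, 179 and 162 CPM in the controls to 28.4 and 44.0 in IRI CD45+ (-2.23 ± 0.30, edgeR adjusted p = 0.000547). NDUFB10, an accessory subunit of complex I, stood at 285, 242 and 216 against 48.0 and 77.1 (-1.81 ± 0.27). Both IRI libraries were below all controls for each gene. SDHB, the gene that marked control macrophage-like cells within complex II, stood at 281, 279 and 248 against 114 and 104 (-1.16 ± 0.20, edgeR adjusted p = 0.00199). COX7B stood at 503, 465 and 419 against 181 and 200 (-1.13 ± 0.20), and UQCR10 at 107, 105 and 95.6 against 50.2 and 47.2 (-0.93 ± 0.23, edgeR adjusted p = 0.0122). NDUFV1 changed by -1.19, NDUFS3, the gene of the peripheral arm that was high in control macrophage-like cells, by -0.81, and NDUFA9 by -0.79. SDHC and SDHD did not pass the test in these cells, nor did any of the 9 genes of complex V.

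The macrophage-like class was not 1 population. Of the control cells 80.6% lay in cluster 5 and 19.4% in cluster 17, and of the IRI CD45+ cells 58.7% lay in cluster 5, 30.4% in cluster 6.1 and 10.9% in cluster 17. Within cluster 5 the summed level of the 42 genes was 12236, 12030 and 9751 CPM in control 1, 2 and 3 and 5764 and 6009 in IRI CD45+ 1 and 2. Both IRI libraries were below all controls. Cluster 6.1 had 9685 in IRI CD45+ 2 (25 cells), and cluster 17 had 11132 and 11573 in control 2 and 3. The top genes of cluster 6.1 included the complement genes C1QC, C1QB and C1QA. They also included ACVRL1, CD300C and SDC2, which were top genes of the monocyte-like cluster 6.0 as well. In IRI CD45+ 2 macrophage markers stood at 4153 CPM in cluster 6.1 and 18472 in cluster 5, and monocyte markers at 2221 and 637. With cluster 5 alone, a setting chosen after seeing the data, 32 of 42 genes were lower and 0 higher, against 15.1% and 9.62% of all genes, with a median of -0.95 against -0.35. It rests on 28 and 26 IRI cells, whose median totals were 10492 and 8611 UMIs against 5086 to 5851.5 in the controls. NDUFC2 changed by -2.55, NDUFB10 by -2.36, COX5A by -2.24, UQCR10 by -1.72 and SDHB by -1.61 there, all of which passed the test.

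**Figure D3:**
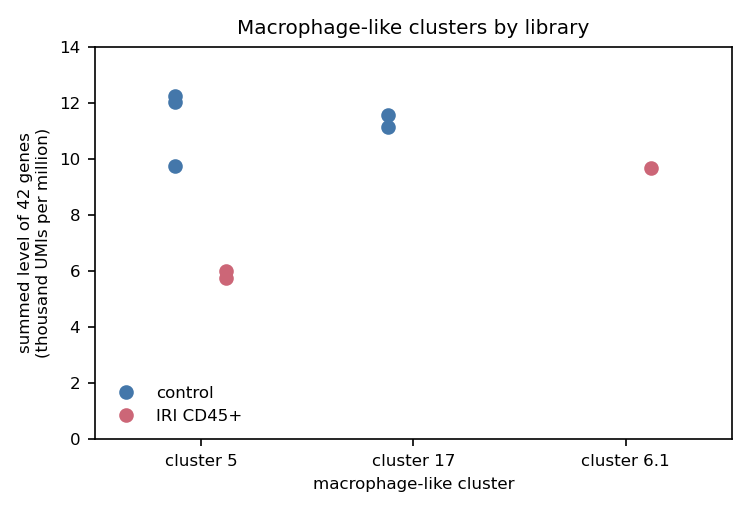
Summed level of the 42 genes (y axis, in units of 1000 CPM) in the clusters that make up the macrophage-like class (x axis), with 1 point per library holding at least 20 cells of the cluster. In cluster 5 the control libraries sit at 9751 to 12236 CPM and the IRI CD45+ libraries at 5764 and 6009, while cluster 6.1 of IRI CD45+ 2 sits at 9685.

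Neutrophil markers in the macrophage-like class (9 of 11 listed, 0 to 2 of them at 0) stood at 4572 to 5520 CPM in the controls and at 9073 and 4307 in IRI CD45+ 1 and 2. Macrophage markers stood at 8656 to 12373 against 13162 and 9387, and cycling markers at 170 to 190 against 5 to 50, with 5 of 7 at 0 in IRI CD45+ 2. Their part in the result was not tested. The count of lower genes was 20 without a filter on low counts and 21 without TMM scaling, which moved the median of all genes by -0.16.

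Plasma- and dendritic-like cells changed in both directions. In plasma-like cells 10 of 42 genes were lower and 6 higher, against 21.3% and 14.8% of all genes (edgeR), both near the background. NDUFB9 had the smallest p, at 440, 412 and 392 CPM in the controls and 269 and 278 in IRI CD45+ (-0.75 ± 0.13, edgeR adjusted p = 0.000358). ATP5PB stood at 426, 437 and 443 against 654 and 832 (0.62 ± 0.12, edgeR adjusted p = 0.000851). ATP5F1A, the alpha subunit of the catalytic head of the ATP synthase, stood at 726, 796 and 823 against 1119 and 1071, and UQCRC1 at 106, 134 and 134 against 205 and 200. Each pair of groups was separate. Plasma-like cells numbered 368 to 582 in the controls and 107 and 82 in IRI CD45+. The count of higher genes was 3 without control 1 or without control 2.

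In dendritic-like cells (247 to 434 per control, 56 and 84 in IRI CD45+) 4 genes were lower and 7 higher, against 20.8% and 15.5% of all genes. ATP5F1A stood at 331, 381 and 384 CPM against 594 and 623 (0.79 ± 0.12, edgeR adjusted p = 0.000627), and COX7A2 at 172, 191 and 163 against 277 and 286 (0.74 ± 0.14, edgeR adjusted p = 0.00243). NDUFB10 stood at 127, 138 and 133 against 59.3 and 70.8 (-0.96 ± 0.18, edgeR adjusted p = 0.00229). In mast/basophil-like cells 28 genes passed the filter on low counts and 2 of them were lower, NDUFB7 and COX8A, against 14.8% of all genes. Monocyte-like cells numbered 2, 1 and 0 in the controls, too few for a comparison.

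Endothelial-like cells were compared between the controls and the lone IRI CD45- library, which was assumed to vary like the controls. Of 42 genes 3 were lower and 4 higher, against 13.9% and 17.8% of all genes (edgeR), both below the background. NDUFB7 stood at 146, 114 and 124 CPM in the controls and at 27.8 in IRI CD45- (-1.80 ± 0.49, edgeR adjusted p = 0.0026). NDUFA6 stood at 30.9, 56.9 and 52.3 against 99.6 (1.44 ± 0.45, edgeR adjusted p = 0.0093), and ATP5PB at 97.1, 228 and 134 against 273 (1.22 ± 0.37, edgeR adjusted p = 0.00849). The IRI value lay outside the range of the controls for all 3. With DESeq2 in place of edgeR none of the 42 genes was called in either direction, and the AT2 markers given above, the endothelial markers (8540 to 10430 in the controls, 4118 in IRI CD45-) and the cluster (98.0% in cluster 9 against 99.1% in cluster 26) differed between the groups as well. Fibroblast- and smooth muscle/pericyte-like cells had 6 and 5 cells in the IRI CD45- library and could not be fitted.

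**Figure D4:**
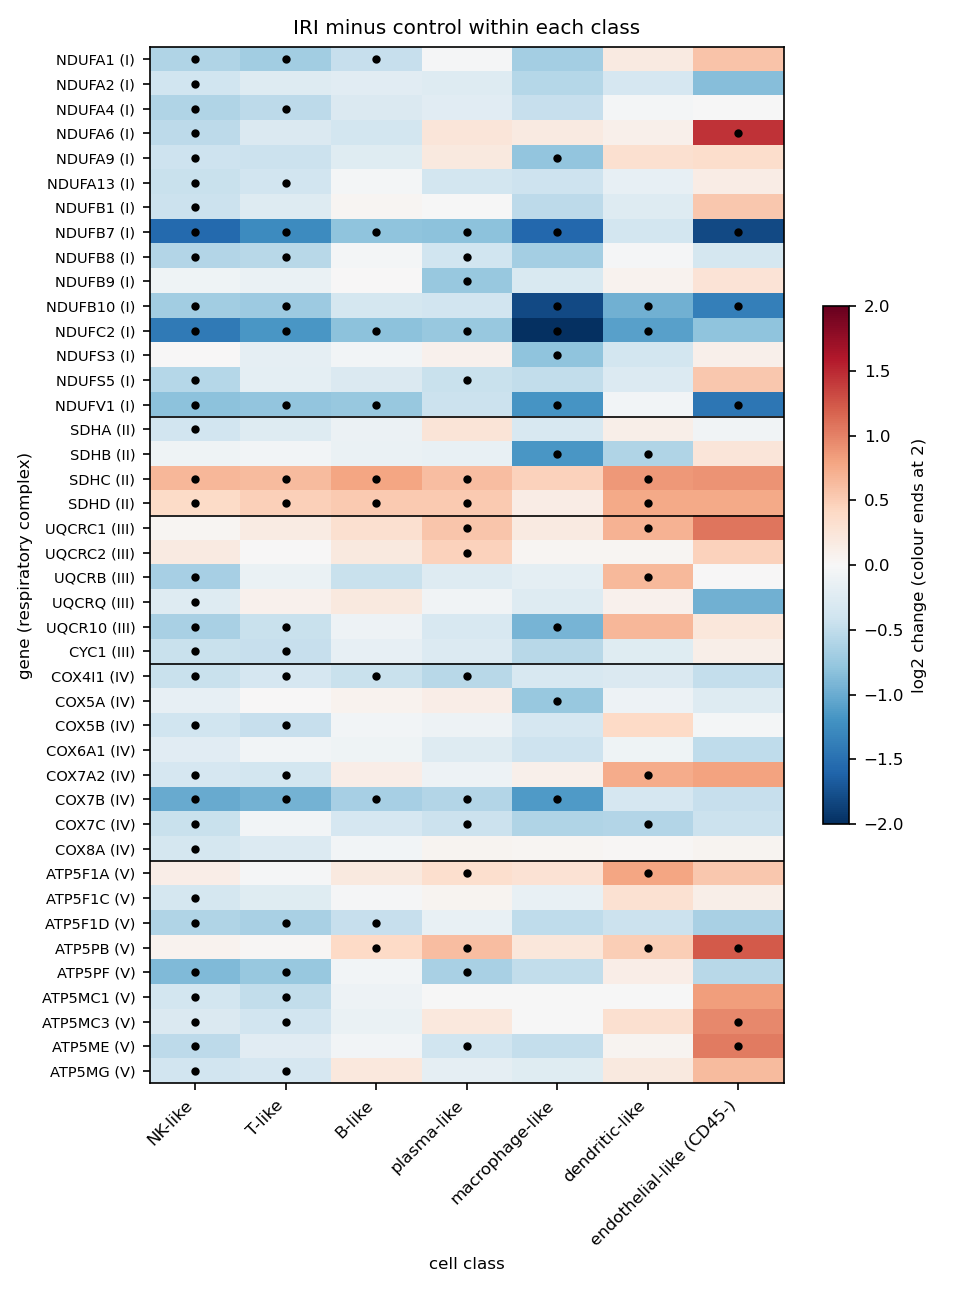
Log2 change of each of the 42 genes (rows, by complex) between control and IRI in each cell class (columns), as a colour scale. The comparisons share control libraries and are scaled by TMM, and NDUFB7 and NDUFC2 are below 0 in every comparison that tested them while SDHC is above 0 in each.

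Across the 8 comparisons, which share the control libraries and, for the leukocytes, the IRI CD45+ libraries, genes of 1 complex differed in direction. NDUFB7 was called lower in 7 of 8 comparisons, with log2 changes of -2.40 to -0.37. NDUFC2 was called lower in 6 of the 7 that tested it (-2.23 to -0.76), and NDUFB10 and NDUFV1 in 5 of 7 each. COX7B was called lower in 5 of 8 (-1.13 to -0.33). NDUFA6 in complex I was lower in 1 comparison and higher in 1, with changes of -0.52 to 1.44. In complex II, SDHC was called higher in 5 of 8 (0.12 to 0.89) and SDHD in 5 of 7 (0.15 to 0.76), whereas SDHB was called lower in 2 and higher in none (-1.16 to 0.24). In complex III UQCRC1 was called higher in 2 of 7 (0.05 to 1.07) and UQCR10 lower in 3 of 8 (-1.14 to 0.67). In complex V ATP5PB was called higher in 4 of 8 (0.03 to 1.22) and ATP5PF lower in 3 (-0.89 to 0.14).

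Positions are those of the RefSeq annotation of Sscrofa11.1. NDUFB7 lies on chromosome 2 from 64718892 to 64723631, NDUFC2 on chromosome 9 from 12486488 to 12492507 and NDUFB10 on chromosome 3 from 40003109 to 40005650. NDUFV1 lies on chromosome 2, as NDUFB7 does, from 4958508 to 4964211. Of the complex II genes, SDHB lies on chromosome 6 from 75648362 to 75678111, SDHC on chromosome 4 from 89135410 to 89169164 and SDHD on chromosome 9 from 39790654 to 39803602. The position along these genes from which UMIs were counted is not given in the files.

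Whether a change differed between classes was tested for 6 pairs of classes on per-library differences (limma, Benjamini-Hochberg adjustment over all genes). In 0 of the 6 pairs was any of the 42 genes called, while the background of called genes was 5.07% lower and 2.52% higher for macrophage- minus T-like, 4.34% and 1.73% for macrophage- minus NK-like and 2.61% and 0.873% for macrophage- minus B-like changes. For NK- minus B-like, T- minus B-like and NK- minus T-like changes it was 0.24% and 0.146%, 0.447% and 0.239%, and 0.0% and 0.0%. At an unadjusted p under 0.05 the numbers of genes were 4, 4, 3, 6, 2 and 0, in the order given. SDHB came nearest, with a change lower in macrophage-like than in T-like cells by 1.07 ± 0.26 on the log2 scale (limma adjusted p = 0.0626), then NDUFB10 in macrophage- minus B-like (-1.49 ± 0.34, limma adjusted p = 0.0684). The larger number of genes called in NK-like than in macrophage- or B-like cells is therefore not shown to be a difference between the classes for any single gene.

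Further gene lists had genes called in both directions, to be read beside the shares of all genes. Those shares were 31.4% lower and 27.1% higher in NK-like, 32.2% and 27.6% in T-like and 18.0% and 12.9% in macrophage-like cells. In B-like cells they were 23.4% and 20.2%, and in endothelial-like cells 13.9% and 17.8%. In NK-like cells 16 of 30 further subunits were lower and 7 higher in IRI CD45+, among them NDUFB5 (-1.11) and COX7A1 (3.01). In T-like cells 10 of 30 were lower and 7 higher, in macrophage-like cells 5 and 1, with CYCS, cytochrome c, higher by 0.93, and in B-like cells 3 and 9. Of 16 TCA cycle genes 3 were lower and 6 higher in NK-like cells, where citrate synthase (CS) was higher by 1.13 and DLST, of the oxoglutarate dehydrogenase complex, by 1.04. The TCA counts were 3 lower and 4 higher in T-like, 2 and 3 in macrophage-like and 0 and 5 in B-like cells. Mitochondrial ribosome genes gave 16 lower and 7 higher of 66 in NK-like, 12 and 13 in T-like and 9 and 9 in macrophage-like cells. Assembly factors of the complexes gave 10 lower and 8 higher of 44 in NK-like and 6 and 2 of 43 in macrophage-like cells, and TFAM, which packages and transcribes mitochondrial DNA, was higher by 1.22 in macrophage-like cells. Glycolysis genes were higher in 7 of 15 and lower in 0 in endothelial-like cells, and gave 2 lower and 4 higher of 20 in NK-like cells. In NK-like cells the shares of mitochondrial ribosome, assembly factor and glycolysis genes were below those of all genes in both directions. Cytosolic ribosome genes gave 21 lower and 21 higher of 69 in NK-like and 8 and 42 in T-like cells.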

How the data were processed

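The authors deposited unnormalized UMI counts for each gene and cell, from PISA per the file headers. R 4.2.2, Seurat 5.5.3 and the build Sscrofa11.1 are named in the submitters' processing notes, and an aligner is not given in the sources used here. Genes and lists were chosen with earlier results of these data known. Cells needed 500 UMIs, 200 genes and at most 20% mitochondrial UMIs (40776 kept; only the controls list mitochondrial genes). Clustering (Python 3.11.15, scanpy 1.11.5; 2000 variable genes, 118 respiratory and mitochondrial genes left out, 30 components, Leiden resolution 1.0, no integration) gave 34 clusters, 26 named from markers of 21 cell types (at least 3 markers above 2-fold, score at least 1.2) and 8 unnamed (5261 cells). Scrublet called 0 to 41 doublets per library, which were removed, far below the set rate of 6%, so doublets largely remain; removing the top 6% of scores was an alternative. UMIs were summed per class and library (at least 20 cells) and tested with edgeR 4.0.16 (R 4.3.3; TMM, filterByExpr, robust quasi-likelihood); differences between changes used limma 3.58.1 (prior count 2). Both tests were run on simulated data with planted changes larger than most of those described, to check the direction of calls. This does not show how well smaller changes are found. Full statistics go to the member with the smallest p in each complex, then the largest change. Alternatives included DESeq2 1.42.0, other cell filters, scalings and leaving out each library. Barcodes are running numbers, so barcodes shared between libraries could not be counted.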

Additional observations from a re-analysis of the deposited data

How the results depend on the processing

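The counts below are of the 42 genes unless another number is given, and the cause of each move was not tested except where the setting tests fewer genes. In macrophage-like cells the 10 genes lower in IRI CD45+ became 20 without a filter on low counts, 21 with library totals in place of TMM and 32 in cluster 5 alone; leaving out each library gave 7 to 11. In T-like cells 19 lower became 29 without TMM, 34 with the stricter cell filter (1000 UMIs, 500 genes, 10% mitochondrial UMIs) and 29 at resolution 1.5, and 11 to 19 without each library (11 without IRI CD45+ 1); 2 higher became 1 without TMM or at resolution 1.5 and 0 with the stricter filter or without the top 6% of doublet scores. In NK-like cells 31 lower became 20 of 25 with genes under 50 kb alone, which tests fewer genes, and 26 to 32 without each library; 2 higher became 1 without the low-count filter and 1 to 2 without each library. In B-like cells 7 lower became 4 to 7 without each library, and 3 higher became 1 after thinning or with genes under 50 kb, 7 with no limit on mitochondrial UMIs and 1 to 2 without each library. In endothelial-like cells 3 lower became 0 with DESeq2, 1 without the low-count filter, 1 after thinning and 1 to 3 without each control (1 without control 3); 4 higher became 0 with DESeq2 or without TMM, 1 after thinning or with genes under 50 kb, and 0 without control 3 to 7 without control 2.

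In the controls the 42 genes higher in macrophage-like cells became 17 of 32 after thinning and 40 to 42 without each library, and the plasma-like difference of SDHB, 0.65, became -0.32 after thinning. In neutrophil-like cells 23 lower became 39 without TMM, 9 of 37 after thinning, 4 with the stricter filter and 10 at resolution 1.5; 2 higher became 1 in 5 settings (no low-count filter, no TMM, thinning, the stricter filter and no mitochondrial limit). Tests of macrophage- minus T-like changes called 1 gene, not 0, with a prior count of 5 and 0 to 2 without each library. Macrophage- minus NK-like changes gave 0 to 1 without each library. Macrophage- minus B-like changes gave 1 with a prior count of 5, after thinning and at resolution 1.5, and 0 to 1 without each library.

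Counting the denominator over all genes listed in the library, which adds mitochondrial genes in the controls, gave summed control levels of 10475 (macrophage-like), 8690 (T-like), 10765 (NK-like), 8208 (B-like) and 9234 CPM (plasma-like). The stricter filter gave 11616 in T-like and 12446 in NK-like cells of the controls, and 9265 in NK-like and 12272 in plasma-like cells of IRI CD45+. Dropping TMM moved the median of all genes by more than 0.1 on the log2 scale in macrophage- (-0.16), T- (-0.20), plasma- (0.15), mast/basophil- (0.18) and endothelial-like cells (-0.39).

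Deviations of control and IRI CD45+ libraries with the same replicate number (1 or 2) had correlations of -0.09 to 0.04. The deviations of 2 IRI libraries mirror each other, so these values cannot show whether libraries share animals. With the number as a replicate block, the lower and higher counts were 9 and 0 in macrophage-like, 20 and 2 in T-like, 31 and 2 in NK-like and 7 and 3 in B-like cells. Limits are the 2 IRI CD45+ libraries, the lone IRI CD45- library, the sort in IRI alone, the untested donor or recipient origin of graft cells, and class names rebuilt from RNA.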

Other observations

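Some classes were measured in too few control cells for any comparison. AT2-like cells numbered 20, 16 and 4 in control 1, 2 and 3, and the 20 cells of control 1 had a summed level of the 42 genes of 12533 CPM, where the 8282 AT2-like cells of the IRI CD45- library had 5820. Ciliated-like cells had 10118 and 10213 CPM in control 1 and 2 and 8689 in the IRI CD45- library.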
